A study of Mus musculus with 12 samples.

Results

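Mouse genes named Zfp and a number (zinc finger protein) were followed as a set. They were found by symbol. The members were chosen by name and selected on their measured level. A gene entered the set when the array annotation gave it a probe cluster of its own with a symbol of that form, when it was not one of 3 genes left out by the rule (Zfp42, Zfp352 and Zfp703), and when its brightest cluster had a mean log2 signal of 6.0 or more over all 12 arrays. Of 333 Zfp genes with a cluster of their own, 134 (40.2%) reached that level and 199 did not. The gene table held 22180 genes, of which 7823 reached the same level. Because the mean log2 signal over all arrays chose the set, the level of its members is a description only. The members nearest the level were Zfp830 (6.02), Zfp975 (6.01) and Zfp213 (6.01), and the genes just under it were Zfp275 (5.995), Zfp169 (5.993) and Zfp606 (5.99). A further 17 Zfp genes appeared only in clusters shared with another gene and were not used.

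The cells were E14 mouse embryonic stem (ES) cells, and total RNA was read on Affymetrix whole-transcript arrays. There were 4 groups of 3 arrays each. The groups labelled shCT_0d and shCT_1d carried a control short hairpin RNA, and the groups labelled shLOXL2_0d and shLOXL2_1d carried one against LOXL2, a lysyl oxidase family enzyme; all 4 were transduced. The 0d groups had no RA (retinoic acid, a vitamin A derivative that makes ES cells differentiate; the labels give only the abbreviation), and the 1d groups had been treated with RA. By its title the series asked which genes depend on LOXL2 when RA drives differentiation. No RA-free group at day 1 is present, so RA cannot be told apart from 1 day of culture. The labels give neither the hairpin sequence nor whether each construct was 1 clone or a pool, and they do not state separate cultures for the 3 arrays of 1 group. The p-values therefore measure the spread between these arrays, which may be technical.

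Most proteins with this name carry C2H2 zinc fingers, which read DNA sequence. Many of them also carry a KRAB domain, which recruits the co-repressor TRIM28 and through it the histone methyltransferase SETDB1, and in ES cells such proteins silence retroviruses and transposons and hold DNA methylation on imprinted genes. The symbol is a name and not a family: Zfp36, for example, is an RNA-binding protein with a different kind of finger.

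Cell type and RA treatment were checked with marker genes. Of 8 ES cell marker genes, 7 had a group mean of 6.0 or more in every group, and the mean over the list was 8.95 to 9.11 on shCT arrays without RA, 8.51 to 8.70 with it, 9.08 to 9.10 on shLOXL2 arrays without RA and 8.54 to 8.68 with it. Fibroblast (feeder) markers had list means of 4.30 to 4.68 over all arrays, with at most 1 of 8 genes at 6.0 or more in a group. A list of 6 RA-induced genes stood between 4.14 and 4.36 on every array without RA and between 7.59 and 7.96 on every array with it. Both clusters that cover Loxl2 are shared with a predicted gene, so they check the knockdown only in part. Without RA one cluster averaged 5.50 ± 0.29 in shCT cells (SD, n = 3) against 4.94 ± 0.14 in shLOXL2 cells, and with RA 6.09 ± 0.37 against 5.18 ± 0.11; the other cluster overlapped between constructs without RA (4.92 ± 0.34 and 4.77 ± 0.23) and read 5.88 ± 0.35 and 4.80 ± 0.23 with it. In bulk RNA, fewer cells of a type and less RNA per cell cannot be told apart, which holds for every change given here.

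The share of these genes called for RA was near that of all genes, and both the count and its direction moved with the model fitted. With each gene's response averaged over both constructs, 15 of the 134 genes passed an adjusted p of 0.05 (limma, Benjamini-Hochberg over all 22180 genes). Of these, 2 rose (Zfp809 and Zfp362) and 13 fell (Zfp428, Zfp710, Zfp296, Zfp36, Zfp59, Zfp740, Zfp532, Zfp263, Zfp553, Zfp652, Zfp57, Zfp566 and Zfp623). The share called, 11.2%, lay beside 10.3% of all genes tested and 16.3% of genes of any name at the same level, a share near the background. By direction, 9.45% of genes at that level fell and 6.89% rose (of all genes, 4.8% fell and 5.52% rose), beside 13 and 2 of the 134 Zfp genes. The median change over the Zfp genes was 0.01 on the log2 scale, beside -0.01 over all genes, with quartiles of -0.17 and 0.17. For the 119 genes that were not called, the 95% interval of the change reached a median of 0.27 log2 units to either side. The Zfp genes under the level of 6.0 had 10 calls, of which 7 rose and 3 fell. Whether the direction of the calls differs between the brighter and dimmer Zfp genes was not tested. When arrays of a construct with the same number were treated as a block, the calls on average came to 28 (20.9%; 10 rose, 18 fell) with the block random, beside 17.5% of all genes and 27% of genes at the level (11.6% rose, 15.4% fell). With the block fixed they came to 25 (18.7%; 8 rose, 17 fell), beside 16.6% of all genes and 26.5% of genes at the level (12% rose, 14.6% fell).

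The upstream sequences of the largest rise and of the 4 largest falls are shown because the arrays read only RNA and these windows are the DNA that lies before the starts of the genes that moved most. They were chosen after the values were seen. Each is the 250 bases before the first start listed by RefSeq on GRCm38.p6, written 5′ to 3′ on the gene's own strand. Capitals mark matches on either strand to the motifs searched: AGGTCA (a half-site of retinoic acid receptors), GCGTGGGCG (EGR), TTCNNNGAA (STAT) and GGGCGG (a GC box); GCGTGGGCG and GGGCGG can overlap by their letters, and no matches overlap in the windows printed.
Zfp809 (chr9:22225453-22225702, plus strand): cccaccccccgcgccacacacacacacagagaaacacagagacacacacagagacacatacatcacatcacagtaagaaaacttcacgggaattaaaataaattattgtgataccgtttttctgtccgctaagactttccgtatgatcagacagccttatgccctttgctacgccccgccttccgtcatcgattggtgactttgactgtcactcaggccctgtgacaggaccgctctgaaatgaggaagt
Zfp428 (chr7:24506837-24507086, plus strand): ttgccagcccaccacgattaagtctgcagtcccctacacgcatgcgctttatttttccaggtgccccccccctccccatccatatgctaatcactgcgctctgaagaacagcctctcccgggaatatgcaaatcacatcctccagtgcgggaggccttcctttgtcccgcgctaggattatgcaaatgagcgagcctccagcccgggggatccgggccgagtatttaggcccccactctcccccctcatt
Zfp710 (chr7:80024564-80024813, plus strand): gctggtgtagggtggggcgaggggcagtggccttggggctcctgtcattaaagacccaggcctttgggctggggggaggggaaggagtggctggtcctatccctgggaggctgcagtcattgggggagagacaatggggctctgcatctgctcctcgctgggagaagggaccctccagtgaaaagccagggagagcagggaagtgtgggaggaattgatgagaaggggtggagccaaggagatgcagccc
Zfp296 (chr7:19577037-19577286, plus strand): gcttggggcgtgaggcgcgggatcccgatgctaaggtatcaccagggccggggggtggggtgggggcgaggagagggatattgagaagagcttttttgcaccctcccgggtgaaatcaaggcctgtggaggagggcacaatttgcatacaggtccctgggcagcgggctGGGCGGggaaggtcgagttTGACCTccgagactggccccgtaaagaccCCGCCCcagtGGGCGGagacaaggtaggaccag
Zfp36 (chr7:28379229-28379478, minus strand): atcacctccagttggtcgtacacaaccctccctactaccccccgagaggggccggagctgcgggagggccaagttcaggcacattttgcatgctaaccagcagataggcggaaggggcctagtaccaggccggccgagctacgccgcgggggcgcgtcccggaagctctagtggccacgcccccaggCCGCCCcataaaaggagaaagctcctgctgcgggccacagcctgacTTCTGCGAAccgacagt
The window of Zfp36 held 1 match to GGGCGG and 1 to TTCNNNGAA, and that of Zfp296 held 3 to GGGCGG and 1 to AGGTCA. The windows of Zfp809, Zfp428 and Zfp710 held none of the 4 motifs. Among the 106 members with an entry, AGGTCA was found in 12 (11.3%), beside 14.0% of all 32851 promoters listed; GCGTGGGCG in 1 (0.943%), beside 0.536%; TTCNNNGAA in 14 (13.2%), beside 7.02%; and GGGCGG in 58 (54.7%), beside 32.7%. The Zfp promoters held a median of 12.5 CG dinucleotides and the whole table a median of 6, and GGGCGG itself holds a CG. Members were counted by the first start listed for each gene, and the whole table by every start listed. The shares and medians are therefore not on equal terms. A match is only a match of letters, and its part in any RA response was not tested.

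Both genes that rose had all their RA arrays above the RA-free arrays of the same construct. Zfp809 is a KRAB zinc finger protein known for silencing murine leukaemia viruses in ES cells, where it binds the primer binding site for proline tRNA. Its log2 signal was 7.44, 8.13 and 8.37 on shCT arrays without RA and 8.59, 8.84 and 9.00 with RA, and 8.38, 7.61 and 7.41 on shLOXL2 arrays without RA and 9.43, 8.49 and 8.53 with it. No array with RA was as low as any array of the same construct without RA, although the third shCT and first shLOXL2 arrays without RA came close. Averaged over constructs Zfp809 rose by 0.92 ± 0.21 (SE), 1.90-fold, with an adjusted p of 0.0131 (limma). The change was 0.83 ± 0.30 in shCT cells and 1.02 ± 0.30 in shLOXL2 cells, and neither passed alone (adjusted p 0.169 and 0.0985). With construct and number as a fixed block the SE in shLOXL2 cells was 0.13, and the rise there passed (adjusted p 0.00116, limma). Its 12 values also followed a difference between arrays within groups, described further on.

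Zfp362, a C2H2 protein, gave the more regular rise. It read 5.67, 5.70 and 5.70 on shCT arrays without RA, 6.44, 6.40 and 6.71 with RA, 5.46, 5.82 and 5.58 on shLOXL2 arrays without RA, and 6.21, 6.35 and 6.56 with it. Every array with RA stood above all 6 arrays without it. The rise was 0.83 ± 0.14 in shCT and 0.75 ± 0.14 in shLOXL2 cells (adjusted p 0.00345 and 0.00686, limma), and 0.79 ± 0.10, or 1.73-fold, on average (adjusted p 0.000131). Without a block it was the only member called as a rise in either construct alone.

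Among genes of the pluripotency network, 1 of 7 measured members was called for RA on average. The share called was 10.3% over all genes and 16.3% over genes at the same level. The called member was Zfp296, a zinc finger gene expressed in ES and germ cells and known as a helper of reprogramming. Its signal was 9.08, 8.94 and 8.44 on shCT arrays without RA and 8.13, 8.30 and 7.53 with it; on shLOXL2 arrays it was 8.73, 9.14 and 9.13, and then 7.81, 8.23 and 7.89. The groups did not overlap within either construct. Zfp296 fell by 0.93 ± 0.15 on average, to 0.526 of its level (adjusted p 0.00151, limma). In shLOXL2 cells the fall of 1.02 ± 0.22 passed (adjusted p 0.0184), and in shCT cells the change of -0.83 ± 0.22 just missed (0.0501).

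The other 6 genes of that list gave no call on average. Zfp462, a large C2H2 protein needed for the ES cell state, had the next lowest value at -0.29 ± 0.11 (adjusted p 0.139, limma). Zfp281, which binds with NANOG and shapes exit from pluripotency, gave 0.10 ± 0.20. Zfp207, a C2H2 protein with mitotic and splicing roles and the third brightest member by its own probes (mean 9.55), gave 0.14 ± 0.12. Zfp217, Zfp219 and Zfp706 lay between -0.15 and 0.12. The median over the 7 genes was -0.06, beside -0.01 over all genes.

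Zfp36 encodes tristetraprolin, which binds AU-rich elements in messenger RNAs and speeds their decay. It read 6.71, 6.69 and 7.03 on shCT arrays without RA, 5.62, 5.58 and 5.86 with RA, 6.30, 6.37 and 6.55 on shLOXL2 arrays without RA and 5.57, 6.07 and 6.01 with it. All 6 arrays with RA were below all 6 without it. The fall was 1.13 ± 0.16 in shCT cells, to 0.458 of its level (adjusted p 0.000859, limma), and the change in shLOXL2 cells was -0.53 ± 0.16 (adjusted p 0.103). On average Zfp36 fell by 0.83 ± 0.11 (adjusted p 0.000279). A call in one construct and none in the other does not show a difference, and the test of the difference is given with the knockdown below.

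The other 8 measured genes with roles in RNA, ribosomes or the cytoplasm gave no call. Zfp598, an E3 ubiquitin ligase that marks collided ribosomes, was at -0.20 ± 0.09 (adjusted p 0.196), Zfp622, a factor in the maturation of the large ribosomal subunit, at -0.14 ± 0.11, and Zfp346, a double-stranded RNA binding protein, at 0.16 ± 0.08. The highest value belonged to Zfp326, which links transcript elongation to splicing, at 0.36 ± 0.13 (adjusted p 0.103, limma). Zfp106, Zfp638, Zfp830 and Zfp451 lay between -0.08 and 0.17. The list's median was -0.04.

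Of 12 measured genes that work in chromatin and transcription complexes, 2 fell and none rose. Over all genes 10.3% were called for RA on average, and over genes at the same level 16.3% (9.45% fell, 6.89% rose). Whether the list differs from these shares was not tested. Zfp532, a partner of the chromatin reader ZMYND8, read 8.81, 8.77 and 8.81 on shCT arrays without RA and 8.38, 8.40 and 8.18 with RA, and 8.96, 8.71 and 8.83 and then 8.37, 8.27 and 8.21 on shLOXL2 arrays. The arrays with and without RA were well apart in both constructs. Zfp532 fell by 0.51 ± 0.08 on average (adjusted p 0.00118, limma) and passed in each construct, with -0.48 ± 0.12 in shCT and -0.55 ± 0.12 in shLOXL2 cells (adjusted p 0.0357 and 0.018).

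Zfp263, a SCAN and KRAB zinc finger protein, read 6.33, 6.42 and 6.30 and then 5.77, 5.91 and 6.07 in shCT cells, and 6.70, 6.74 and 6.49 and then 6.20, 5.88 and 6.07 in shLOXL2 cells. The 6 arrays with RA were all lower than the 6 without it. It fell by 0.51 ± 0.09 on average (adjusted p 0.00257, limma), and by 0.59 ± 0.13 in shLOXL2 cells (0.0213). The 2 other ZMYND8 partners, Zfp592 and Zfp687, gave 0.22 ± 0.08 and -0.07 ± 0.13 on average, with no call. The remaining 8 genes (Zfp410, Zfp277, Zfp609, Zfp516, Zfp131, Zfp384, Zfp64 and Zfp24) lay between -0.15 and 0.23 on the log2 scale. The list's median was -0.03.

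Imprint maintenance rests on DNA-binding proteins that keep methylation on imprinted control regions after fertilization. Zfp57, the best known of them, read 9.19, 9.16 and 9.35 without RA and 8.61, 8.97 and 9.05 with it in shCT cells, and 9.35, 9.00 and 8.93 and then 8.84, 8.72 and 8.57 in shLOXL2 cells. The groups did not overlap within a construct, though the lowest array without RA and the highest with RA were close in both. Zfp57 fell by 0.37 ± 0.11 on average, to 0.774 of its level, with an adjusted p of 0.0445 (limma) that passed in 3 of the 12 fits that each left out 1 array. Zfp445, which acts beside it on imprints, was at 0.19 ± 0.19, and Zfp568, which represses a placental transcript of Igf2, at 0.22 ± 0.09 (adjusted p 0.159).

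Retroelement silencing had 4 listed genes and Zfp809 alone reached the level. Zfp819, Zfp708 and Zfp932 had mean signals of 5.44, 5.08 and 3.29 and so were not members; Zfp819 was among the dimmer genes that fell (-1.18 ± 0.12, adjusted p 3.07e-05, limma).

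Of the 12 listed lineage regulators 5 were members, and none was called. Zfp423, which takes part in BMP and RA receptor signalling, gave 0.21 ± 0.12 on average, Zfp148 gave 0.33 ± 0.19, and Zfp292 gave -0.18 ± 0.27. Zfp750, a regulator of epidermal differentiation, was at -0.29 ± 0.10 (adjusted p 0.0949, limma), and Zfp365 at -0.01 ± 0.15. Another 5 of the list were under the level and 2 had no usable cluster. Of those under the level, Zfp503 rose (0.41 ± 0.10, adjusted p 0.0132, limma) and the others were not called.

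The largest fall by value belonged to Zfp428, a zinc finger gene on chromosome 7. Its signal was 6.95, 6.83 and 6.17 on shCT arrays without RA and 5.74, 5.91 and 5.23 with RA, and 6.22, 6.99 and 7.10 and then 5.52, 6.18 and 5.92 on shLOXL2 arrays. The groups did not overlap within a construct, but the lowest array without RA stood close to the highest with it in shLOXL2 cells (6.22 and 6.18). Zfp428 fell by 0.96 ± 0.19, to 0.515 of its level (adjusted p 0.00545, limma), with -1.02 ± 0.27 in shCT and -0.89 ± 0.27 in shLOXL2 cells (0.0524 and 0.106).

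Zfp710, also on chromosome 7, fell by almost as much. It read 7.57, 7.46 and 7.37 and then 6.38, 6.57 and 6.30 in shCT cells, and 6.84, 7.58 and 7.97 and then 6.36, 6.74 and 6.71 in shLOXL2 cells. The shCT groups were far apart, and the shLOXL2 arrays without RA were spread over more than 1 log2 unit. The average fall was 0.95 ± 0.16, to 0.517 of its level (adjusted p 0.00146, limma), and in shCT cells alone it was 1.05 ± 0.22 (0.0164).

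Zfp740 fell by less and with little spread. Its arrays without RA lay between 7.98 and 8.14 and those with RA between 7.39 and 7.69. It fell by 0.59 ± 0.11 in shCT and 0.47 ± 0.11 in shLOXL2 cells (adjusted p 0.0089 and 0.0353, limma). Together Zfp362, Zfp532 and Zfp740 were the 3 members called in the same direction in both constructs, which share no arrays in that comparison.

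The other falls were smaller or less regular. Zfp59 fell by 0.60 ± 0.13 (adjusted p 0.00723, limma), with its first shCT array without RA (5.92) level with the highest shCT array with RA (5.92). Zfp553 fell by 0.49 ± 0.12 (0.0149) and its groups did not overlap. Zfp652, a partner of the CBFA2T3 co-repressor, fell by 0.41 ± 0.12 (0.045); its shCT arrays overlapped, and the call held in 1 of the 12 fits with an array left out. Zfp566 fell by 0.35 ± 0.10 (0.0323) and Zfp623 by 0.33 ± 0.09 (0.0361), and these calls held in 6 and in 2 of those 12 fits. Zfp623 lay just past the number of falls to be named and is given because the count includes it.

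**Figure D1:**
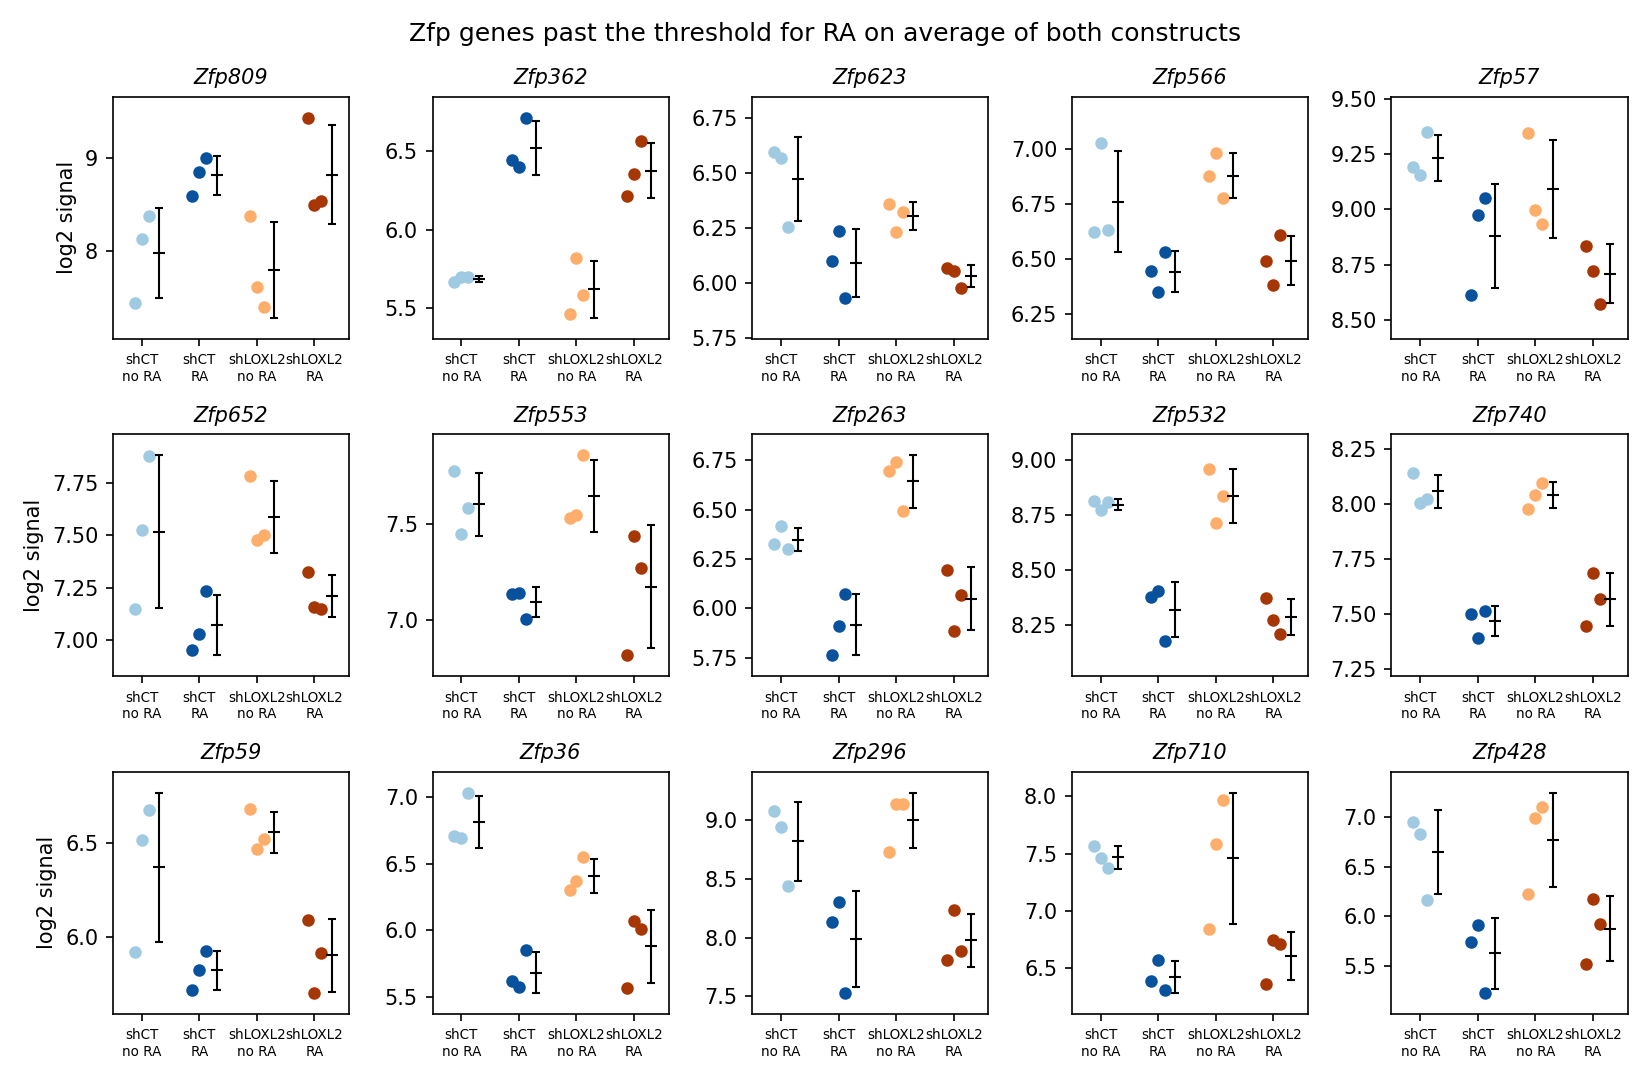
Log2 signal of the 15 Zfp genes past the threshold for RA on average, one panel per gene, with each of the 12 arrays as a point by group (shCT and shLOXL2, without and with RA) and bars for the group mean ± SD (n = 3). Zfp809 and Zfp362 stand higher with RA in both constructs and the other 13 lower; each panel has its own vertical axis, which does not start at 0.

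Within single constructs fewer genes passed. In shCT cells 5 of the 134 were called (Zfp362 rose; Zfp36, Zfp710, Zfp740 and Zfp532 fell), beside 4.25% of all genes (2.16% rose, 2.09% fell) and 6.65% of genes at the level of 6.0. In shLOXL2 cells 5 were called (Zfp362 rose; Zfp296, Zfp263, Zfp532 and Zfp740 fell), beside 3.46% of all genes (2.05% rose, 1.41% fell) and 5.48% of genes at that level. Deviations of same-numbered arrays without and with RA correlated at 0.22 to 0.56 in shLOXL2 cells and at 0.04 to 0.63 in shCT cells. With construct and number as a fixed block the count in shLOXL2 cells was 11 (8.21%). Of these, 3 rose (Zfp809, Zfp362 and Zfp612) and 8 fell. The shCT count also grew with that block and is given with the processing settings at the end. In shLOXL2 cells under that fit, 7.32% of all genes and 11.3% of genes at the level were called (5.89% rose, 5.43% fell).

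By array values alone, with no test, 22 members had all 3 shCT arrays with RA below all 3 without it and 10 had them above, beside 10.5% and 10.7% of all genes. For shLOXL2 the counts were 19 below and 11 above, beside 9.32% and 10.3%. Lower in both constructs were 13 members, beside 4.33% of all genes; these were 11 of the called falls together with Zfp418 and Zfp35. Higher in both were 5, beside 4.67%: Zfp809, Zfp362, Zfp592, Zfp746 and Zfp334. Read against these shares, separation upward was no more frequent than in the table as a whole, and separation downward was more frequent. Shares of separated genes were not taken for genes at the same level. In the main fit 9.45% of genes at that level fell and 6.89% rose. Whether the downward excess is particular to the Zfp genes was therefore not tested.

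The sizes of the responses were alike in the 2 constructs over the set. Across the 134 genes the change in shCT and in shLOXL2 cells had a Pearson r of 0.856 and a Spearman rho of 0.804, and 109 (81.3%) had the same sign, beside 0.736, 0.551 and 67.8% over all genes. These are descriptions across genes, which are not independent replicates, and the constructs share no arrays. Zfp36 lay farthest from the line of equal change among the called genes.

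**Figure D2:**
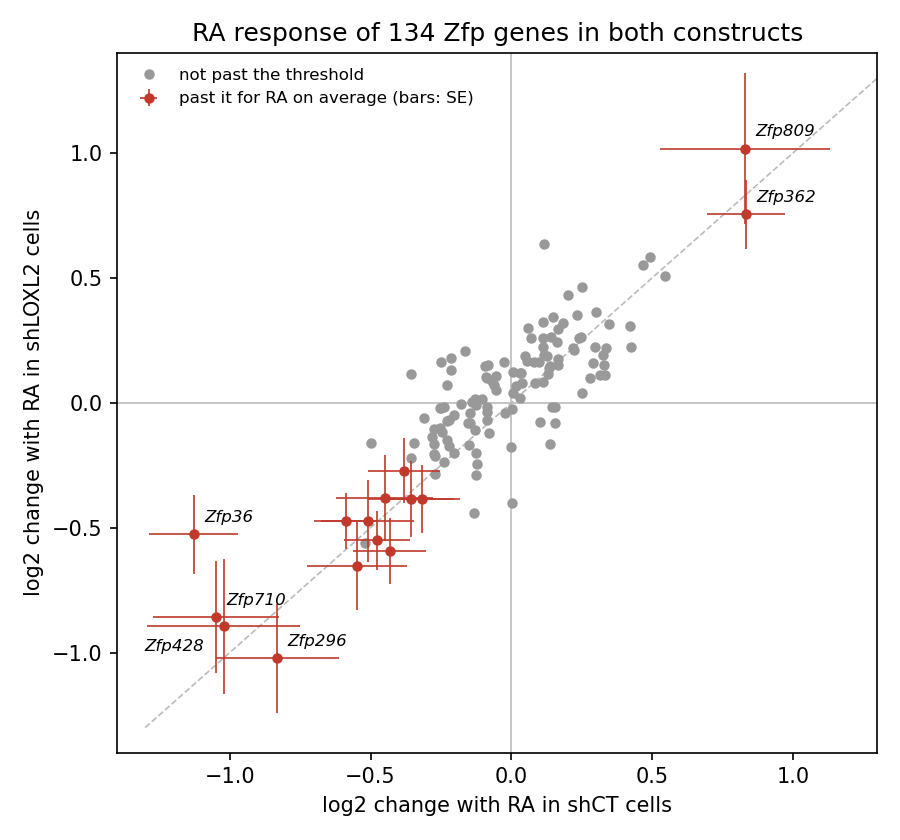
Log2 change with RA of 134 Zfp genes in shCT cells (horizontal axis) and shLOXL2 cells (vertical axis). Red points with SE bars are the 15 genes called on average, grey points the other 119, and the dashed line marks equal change; most points lie near the line, Zfp809 and Zfp362 at the upper right and Zfp36 above the line at the left (-1.13 and -0.53).

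LOXL2 knockdown moved no member past the threshold. With an adjusted p of 0.05 in limma the count was 0 of 134 without RA, 0 with RA and 0 on average over both, beside 0%, 0% and 0.0541% of all genes. At an unadjusted p under 0.05 the counts were 4, 4 and 7 members, beside 4.68%, 4.96% and 6.72% of all genes. The median difference on average (shLOXL2 minus shCT) was 0.03 over the members, 0.03 over genes at the same level and 0.00 over all genes. A missed threshold does not show that the genes were equal, so the intervals of those with the smallest p are given.

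Zfp568, the repressor of a placental Igf2 transcript named above, had the smallest p. It read 8.65, 8.84 and 8.77 in shCT and 9.24, 9.16 and 9.00 in shLOXL2 cells without RA, and 9.05, 9.02 and 8.85 and then 9.49, 9.33 and 9.21 with RA. Every shLOXL2 array was above every shCT array of the same RA state. The difference was 0.37 ± 0.09 on average (95% interval 0.18 to 0.57; unadjusted p 0.000926, adjusted p 0.225, limma), 0.38 ± 0.13 without RA and 0.37 ± 0.13 with RA.

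Zfp592, a ZMYND8 partner, read 6.89, 6.83 and 6.77 in shCT and 6.91, 7.13 and 7.23 in shLOXL2 cells without RA, and 7.07, 7.08 and 6.99 and then 7.42, 7.23 and 7.27 with RA. Its shLOXL2 arrays too were the higher 3 in both states. The average difference was 0.26 ± 0.08 (95% interval 0.08 to 0.44; adjusted p 0.471, limma). Zfp418 was at 0.25 ± 0.08 (0.08 to 0.42; 0.436) and Zfp110, which binds the neurotrophin receptor p75, at 0.23 ± 0.09 (0.03 to 0.43; 0.644).

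Zfp750 had the lowest value of the 5 at -0.26 ± 0.10 on average (95% interval -0.48 to -0.05; adjusted p 0.589, limma). With RA its shLOXL2 arrays (6.46, 6.43 and 6.08) were all below its shCT arrays (6.77, 6.81 and 6.65), a difference of -0.42 ± 0.14, whereas without RA the arrays overlapped and the difference was -0.11 ± 0.14. Without RA, Zfp36 gave -0.40 ± 0.16, Zfp263 gave 0.29 ± 0.13 and Zfp609 gave -0.24 ± 0.13. With RA, Zfp365 gave -0.41 ± 0.21.

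Whether knockdown changed the RA response was tested as the difference between the 2 responses (shLOXL2 minus shCT). No member passed, beside 0% of all genes, and 1 member had an unadjusted p under 0.05, beside 2.94%. That member was Zfp36, at 0.60 ± 0.22 (95% interval 0.12 to 1.08; unadjusted p 0.0182, adjusted p 1, limma). The next smallest p belonged to Zfp612 (0.52 ± 0.26), Zfp846 (0.47 ± 0.25), Zfp750 (-0.31 ± 0.20) and Zfp639 (0.25 ± 0.17), each with an interval that included 0. The 9 RNA and cytoplasmic genes all had differences of 0.00 or more, with a median of 0.21. The median was 0.07 over the 134 members (67.2% above 0) and 0.01 over all genes. Over genes at the same level it was 0.05 (63.9% above 0), near that of the members. The list was not tested as a group.

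**Figure D3:**
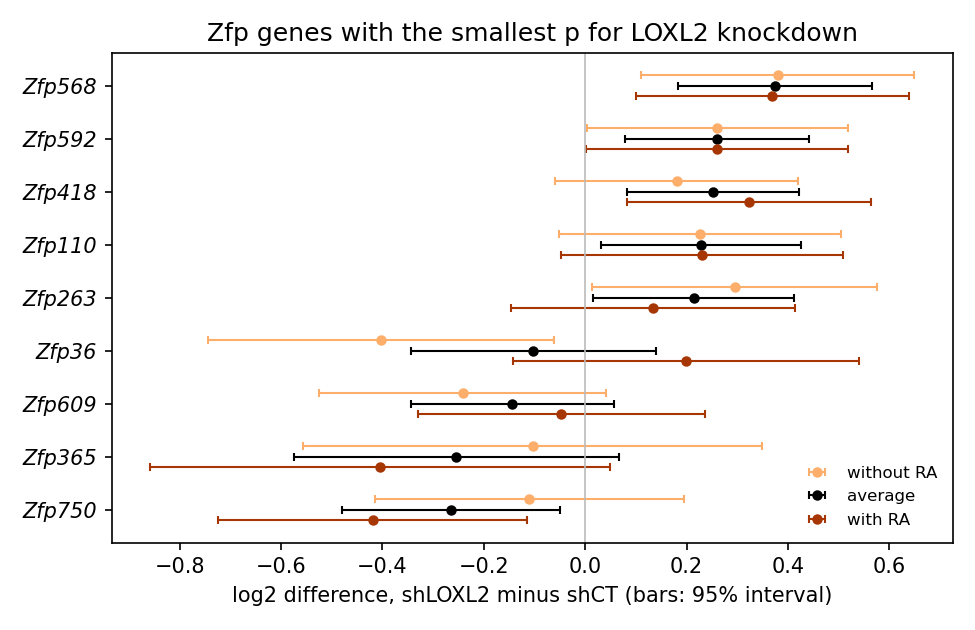
Log2 difference between shLOXL2 and shCT cells for the Zfp genes with the smallest p in any knockdown comparison, without RA, with RA and on average, with 95% intervals from limma. None passed an adjusted p of 0.05; Zfp568 lay above 0 in all 3 comparisons, and Zfp36 lay on opposite sides of 0 without and with RA.

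Arrays of the same group differed from one another, and many of the Zfp genes followed that difference. The first principal component of the deviations from group means over all 22180 genes held 49.4% of the within-group variance, and it is called the axis here. The third array of each shCT group and the first array of each shLOXL2 group were high on it. The first shCT array without RA, the third shLOXL2 array without RA and the second shLOXL2 array with RA were low. High arrays occurred in every group, and low ones in every group except shCT with RA. The axis was made from deviations from group means, so its scores balance out within each group by construction. It describes spread within groups only and cannot show whether its source also differs with RA or construct. The 4 high arrays also had the highest upper quartile of signal in their groups, 6.27 to 6.36, beside 6.17 to 6.26 on the other 8.

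Over the Zfp genes the correlation with the axis had a median of 0.66 (quartiles -0.33 and 0.95). It was above 0.8 for 59 genes (44.0%) and below -0.8 for 12 (8.96%), beside 24.8% and 15.5% of genes at the same level and 11.8% and 10.3% of all genes. The sign of the axis was set so that the Zfp median is positive, so only the comparison of both ends is informative. On the 4 high arrays, 57.5% to 65.7% of Zfp genes had their group's highest value, beside 40.6% to 47.8% of genes at that level. What sets the axis apart (RNA amount, RNA quality or culture) was not tested.

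The members that varied most within groups were all of this kind. Zfp992 read 8.40, 9.59 and 10.73 on shCT arrays without RA, 9.37, 9.61 and 10.49 with RA, 10.62, 9.19 and 8.78 on shLOXL2 arrays without RA and 10.45, 9.16 and 9.10 with it. The highest array of each group was the third in shCT and the first in shLOXL2 cells, with or without RA. In shCT cells without RA the first array was also well below the second. Its within-group SD was 0.896 and its correlation with the axis 0.99. Zfp942 (SD 1.03), Zfp981 (0.964), Zfp600 (0.911) and Zfp975 (0.876) were alike, with correlations of 0.97, 0.93, 0.86 and 0.99. None of these 5 was called for RA or knockdown, and their average RA changes had SEs of 0.40 to 0.46.

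At the other end, Zfp346 (SD 0.0715), Zfp418 (0.078) and Zfp740 (0.0839) varied least, with correlations of 0.30, 0.49 and -0.66. The median within-group SD was 0.222 over the Zfp genes, 0.181 over genes at the same level and 0.199 over all genes. Of the genes called for RA, Zfp809, Zfp652 and Zfp59 followed the axis (0.96, 0.94 and 0.90), and Zfp428 and Zfp296 ran against it (-0.92 and -0.84), whereas Zfp36, Zfp362, Zfp532 and Zfp566 lay between -0.14 and 0.21.

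**Figure D4:**
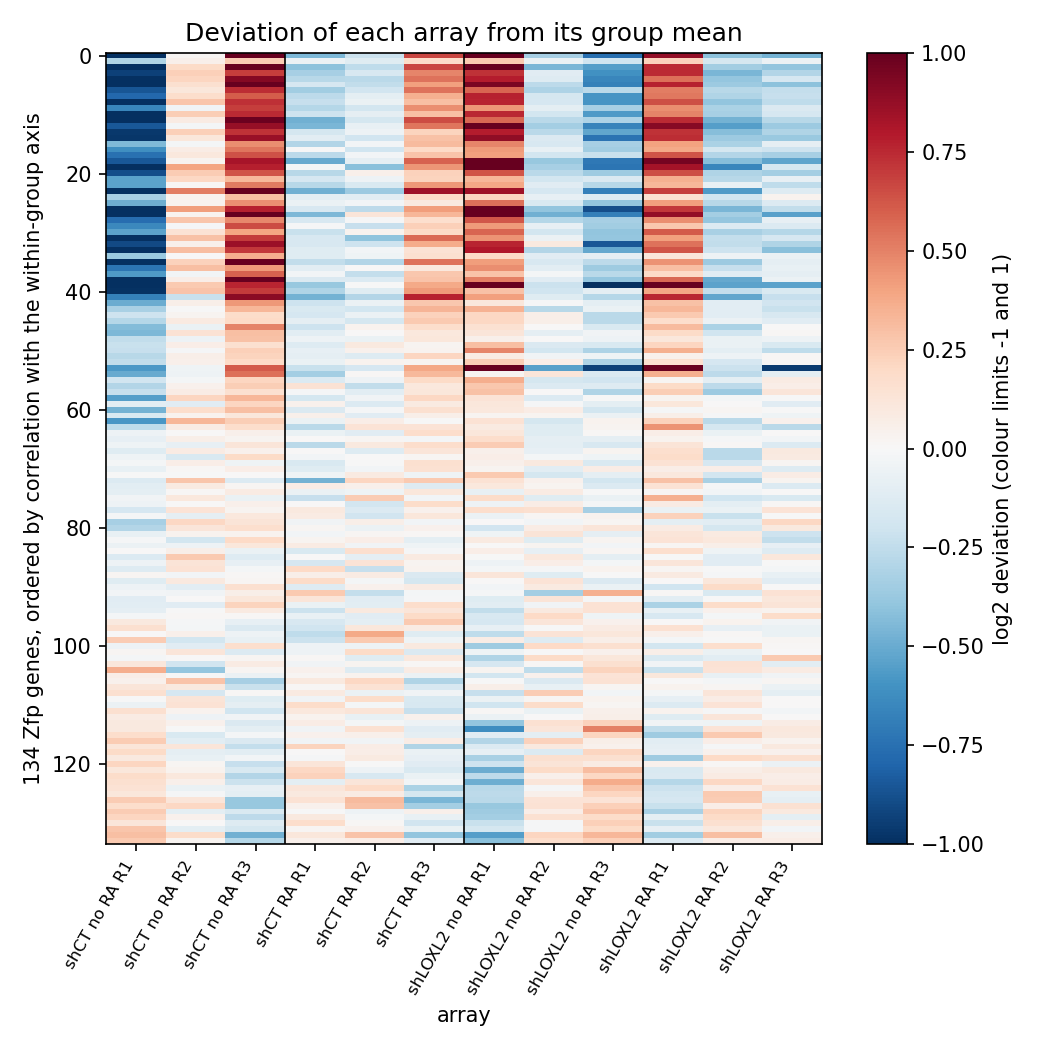
Deviation of each of 12 arrays from its group mean (log2, colour from -1 to 1) for 134 Zfp genes in rows, ordered by their correlation with the within-group axis from 0.99 at the top to -0.92 at the bottom. The third array of each shCT group and the first of each shLOXL2 group are red in the upper rows and blue in the lowest.

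Many Zfp genes lie in runs on the chromosome. By the RefSeq gene order, 57 of the 133 placed members stood next to another Zfp gene. Their median correlation with the axis was 0.76, and 27 (47.4%) were above 0.8; for the 76 others the median was 0.56 and 31 (40.8%) were above 0.8. Of the called genes, 5 had such a neighbour (1 rose, 4 fell) and 10 did not (1 rose, 9 fell).

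Among the runs with 3 or more members, those on chromosomes 4 and 17 had the highest median correlations with the axis. Zfp600, Zfp980, Zfp981 and Zfp992 of one chromosome 4 run had correlations of 0.86 to 0.99, Zfp534, Zfp979 and Zfp984 of another 0.96 to 0.99, and Zfp229, Zfp760 and Zfp942 on chromosome 17 0.97 to 0.99. A further cluster is annotated jointly to Zfp600, Zfp979, Zfp980, Zfp981 and Rex2, so these genes can share probe sequence and the signal of each is uncertain. A run of 15 Zfp genes on chromosome 7 held 6 members (Zfp146, Zfp566, Zfp568, Zfp74, Zfp790 and Zfp84) with correlations from 0.21 to 0.97 and RA changes from -0.35 to 0.22. Chromosome 7 held 30 of the members and 7 of the 15 called for RA, beside 10.3% called of all genes on any chromosome. The share called among all genes of chromosome 7 was not taken. Whether calls gather there was not tested.

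The brightest members by their own probes were Zfp640 (mean 10.33), Zfp992 (9.62), Zfp207 (9.55), Zfp568 (9.05) and Zfp57 (8.98), and of these Zfp57 alone was called for RA; signals of different probes do not rank transcripts. Further clusters existed for 10 members, 14 in all, and in 10 of the 14 the sign of the RA change was that of the brightest cluster.

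With the axis as a covariate, 40 of the 134 Zfp genes were called for RA on average, 19 up and 21 down, against 15 without it. This was 29.9% of the members, beside 20.7% of all genes and 34.3% of genes at the level under the same fit (16.8% rose, 17.5% fell). The changes were the same and the SEs smaller, since the axis was made from these values. The adjusted p-values of this fit may therefore be too small, and its calls are a description only. Of the 25 genes added, 17 rose and 8 fell, and 13 had a correlation above 0.8. Zfp141 had the largest value among them (-0.54, SE 0.29 without and 0.11 with the covariate; adjusted p 0.317 and 0.00271, limma), followed by Zfp931 (0.54), Zfp942 (0.53) and Zfp654 (0.51), all named after their values were seen. For knockdown on average, Zfp568 came under the threshold in that fit alone (adjusted p 0.0487, limma), with the same limit.

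The TRIM28 pathway, through which KRAB zinc finger proteins act, was measured by 21 genes outside the set. On average 1 fell with RA and none rose: Setdb1, at -0.27 ± 0.08 (adjusted p 0.0428, limma). In the same fit 10.3% of all genes were called, and 16.3% of genes at the level used for the Zfp genes. Trim28 itself gave -0.29 ± 0.12 (0.156). None of the 21 was called for knockdown. The median RA change of the list was -0.07, beside -0.01 over all genes.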

How the data were processed

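The authors' deposited table holds log2 values of probe clusters for each array. The submitters' processing notes name RMA, limma and R 3.1.1, with no role or order; the genome build is not given in the sources used here. Array medians were 4.58 to 4.68; that the scale is log2 was read from the values, and any centring is unknown. 41345 clusters were listed: 23521 with 1 gene, 1814 with several (not used) and 16010 with none. Symbols were updated through RefSeq gene IDs, and the brightest cluster stood for a gene; 133 of 134 members matched RefSeq.

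All 22180 genes were fitted in limma 3.58.1 (R 4.3.3, statmod 1.5.0) with 1 mean per group of 3 arrays, and p-values were adjusted by Benjamini-Hochberg over all genes. The steps were tested on simulated data. The members and lists were chosen with earlier results of these data known. Named were the 12 largest rises and falls called for RA on average, the 6 largest called in each construct, every call or else the 5 smallest p for knockdown and for the difference of responses, the 5 brightest, the 3 on either side of the level, the 5 most and 3 least variable, and the role lists.

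Replicate numbers come from the titles. Deviations from group means over all genes correlated within shCT pairs at 0.36, 0.04 and 0.63 and within shLOXL2 pairs at 0.56, 0.25 and 0.22. All 6 pairs within a construct were positive (0.04 to 0.63), and the 12 same-numbered pairs across constructs ran from -0.55 to 0.20. The random block for construct and number estimated a correlation of 0.323 within a block. The labels do not say what a number marks. Whether the numbers pair RA states therefore remains unknown in both constructs. The main fit used no pairing, and the blocks for construct and number pair both. Alternatives were blocks, other moderation, normalization, gene filters, levels, sample subsets and the axis. Protein features were not analysed here.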

Additional observations from a re-analysis of the deposited data

How the results depend on the processing

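The settings were compared for the genes called for RA and those with the smallest p for knockdown or the difference of responses. None of these reversed its direction under any setting. The other genes named in the text were not followed in this way. Of 1040 comparisons with the main value, 938 kept their side of the threshold, 101 lost the call and 1 gained it. The 938 include knockdown and difference comparisons that were not called in the main fit and so had no call to lose. They do not measure how stable the RA calls are. The RA genes counted here were all called in the main fit, so they could lose a call but not gain one. For RA on average the count of 15 became 28 with a random block for construct and number, 25 with that block fixed, 40 with the axis as covariate, 25 at a level of 5 or more and 7 at 7 or more; leaving out 1 array at a time gave 11 to 15. Of the 15 genes, 10 were called under every alternative and 11 whenever 1 array was left out. In shCT cells the count of 5 became 13, 12, 20, 8 and 2 under the same settings and 8 among genes above the median signal (1 array left out: 3 to 7). In shLOXL2 cells the count of 5 became 12, 11, 19, 8 and 3, then 2 with only the groups compared and 0 without the arrays low on the axis (1 array left out: 1 to 7). The replicate block, with 1 number across all groups, gave 12 calls on average, 5 in shCT and 3 in shLOXL2 cells; across constructs same-numbered arrays correlated at -0.55 to 0.20, so this block does not pair them. For knockdown on average the count of 0 became 1 with the axis as covariate; the other knockdown counts and the difference of responses stayed at 0 (1 array left out: 0 to 0). The share of rises among calls for RA on average was 13.3%, and 35.7%, 32%, 47.5% and 36% with the random block, the fixed block, the axis and the level of 5; with only higher levels kept it was 14.3%. The median RA change of the members was 0.01, and -0.11 without the low arrays. The fixed block and the fit without low arrays were added after the data were seen. The cause of these shifts was not tested. With 3 arrays per group and no sequencing depth, the number of arrays limits precision; signal over background was not given.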
